A study of Mus musculus with 24 samples.

Results

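The genes described here encode the mitochondrial respiratory chain. They were taken as every gene whose symbol, in an annotation that gives its probe set 1 symbol, begins with Nduf, Cox4 to Cox8, Uqcr, Atp5 or Sdha to Sdhd. The rule found 73 genes on 100 probe sets, of 8251 genes and 12422 probe sets in all, and each gene stands for its brightest probe set by mean signal over the 24 arrays. Of the 73 genes, 29 are subunits of complex I, 4 of complex II, 7 of complex III, 15 of complex IV and 14 of the ATP synthase, and 4 are assembly factors (Ndufaf1, Ndufaf4, Sdhaf1 and Sdhaf2). Another 10 probe sets that the annotation gives to several genes were left out, and with them Cox7c, Ndufa11, Ndufb4, Ndufs5 and Ndufs6.

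The respiratory chain sits in the inner mitochondrial membrane. Complexes I and II feed electrons from nutrients into it, complexes III and IV carry them on to oxygen, and the proton gradient built on the way drives the ATP synthase. Most subunits are encoded in the nucleus and imported, and the transcription factors Nrf1, Gabpa and Yy1 are known regulators of many of them. Type II alveolar cells, which make and secrete surfactant, are rich in mitochondria, and c-Myc is known to act on nuclear genes for mitochondrial proteins.

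Of the 24 arrays, 22 measured 11 cell lines (A2B1, A2C12, B3, betaD5, betaD10, cRAF_cMYC, gammaA3, gammaA7, gammaB8, gammaD1 and gammaD12) grown from lung tumours of 8-month-old mice that carry both a c-myc and a c-raf transgene. The lines had been kept in culture with calf serum for up to 50 passages. The other 2 arrays measured the control, alveolar epithelial type II cells from healthy mice without the transgenes, prepared from lung on a density gradient. The labels name no promoter for the transgenes and no age for the control mice. 5 lines had 3 arrays, 1 line had 2 and 5 lines had 1. Culture and the transgenes came together in every line, so their effects cannot be told apart. Nothing in the labels tells whether a line's repeat arrays are separate cultures, or the 2 controls separate animals. The p-values of all lines together against control therefore measure only the spread between these lines and between the 2 controls. Those of the other fits rest mostly on the spread between repeat arrays. The spread between repeat arrays, and that between the controls, may be technical.

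The values are array signals scaled to nearly 1 trimmed mean, so a level is relative to the other RNAs on the array. The median signal was 53.2 to 75.5 across tumour arrays, against 93.8 for control 1 and 107.7 for control 2, and the 3' to 5' actin ratio 1.03 to 1.32 against 1.47 and 1.64. The controls also differed in marker signals. The summed signal of the 7 type II markers on the array was 1452 on control 1 and 29810 on control 2, against 38.6 to 147 on tumour arrays. That of 10 macrophage and myeloid markers was 47250 and 28360 against 172 to 395. The same sums were 1101 and 3890 against 66.5 to 189 for 7 lymphocyte markers, 650 and 1803 against 21.7 to 67.2 for 4 endothelial markers, 7390 and 19890 against 262 to 598 for 4 club and ciliated cell markers, and 127 and 1927 against 15.1 to 77.1 for 3 erythroid markers. In bulk RNA of this kind, fewer cells of a type and less RNA per cell cannot be told apart, and the part of these differences in the results below was not tested.

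In the tumour lines, 5 of 26 tested subunits of complex I, 1 of 7 of complex III and 4 of 12 of the ATP synthase rose against control. None of the 4 subunits of complex II was called, and 4 of 12 of complex IV fell, namely Cox6a2, Cox6b1, Cox6b2 and Cox8c. Of the 73 genes, 65 passed the filter on low signals and were tested; the other 8 (Ndufa1, Ndufa12, Ndufc2, Cox5a, Cox7a1, Cox8a, Atp5g1 and Atp5j2) had signals of at most 94.4 in every line mean and control, and whether that is low expression or the probes was not tested. A gene was called when limma's Benjamini-Hochberg adjusted p over all 7670 tested probe sets was under 0.05 and the difference, on the log2(signal + 32) scale, at least 2-fold. In these terms 10 genes rose (15.4%, against 16.5% of all tested probe sets), 5 fell (7.69%, against 21.4%) and 50 did neither. The share that rose was thus near the background. With no fold threshold, 32 were higher (49.2%, against 30.0% of all tested) and 6 lower (9.23%, against 34.5%) at an adjusted p under 0.05. The median log2 difference of the 65 genes was 0.33, beside -0.05 over all tested probe sets, and 50 of the 65 differences were positive. All 11 lines lay above both controls for 30 genes (46.2%, against 25.4% of all tested) and below both for 5 (7.69%, against 29.7%). Without control 2, which was lower than control 1 for most members, 9 were called higher (14.3% of all tested were) and 3 lower (19.1%). Without control 1, 15 were called higher (18.5% of all tested) and 5 lower (23.0%), and the median was 0.54.

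Respiratory chain genes are bright on these arrays, and bright probe sets as a whole were higher in the lines. Of 994 tested probe sets with a mean signal of 1000 or more, 45.5% were called higher, with a median log2 difference of 0.89. The 38 members at that brightness had a median of 0.75, and 10 of them (26.3%) were called higher. All 11 lines lay above both controls for 28 of these 38 (73.7%), against 60.6% of the bright probe sets as a whole. The other 27 members included all 5 that were called lower (18.5%, against 24.1% of the 6676 tested probe sets under 1000). None of the 27 was called higher (12.2% of those probe sets were). All 11 lines lay above both controls for 2 of the 27 (7.41%, against 20.2%). Since 22 of the 24 arrays in that mean are tumour arrays, brightness itself leans towards genes that are higher in the lines.

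The split between higher and lower also moved with the scaling. With every array centred on its median, 33 members were called higher (50.8%, against 33.4% of all tested) and 3 lower (4.62%, against 10.8%), and the median difference of all tested probe sets moved from -0.05 to 0.54; that of the members was 0.48 above it. After quantile normalization 9 were higher (13.8%, against 21.8%) and 3 lower (4.62%, against 17.9%), and the members' median lay 0.25 above that of all tested (0.43 and 0.18).

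**Figure D1:**
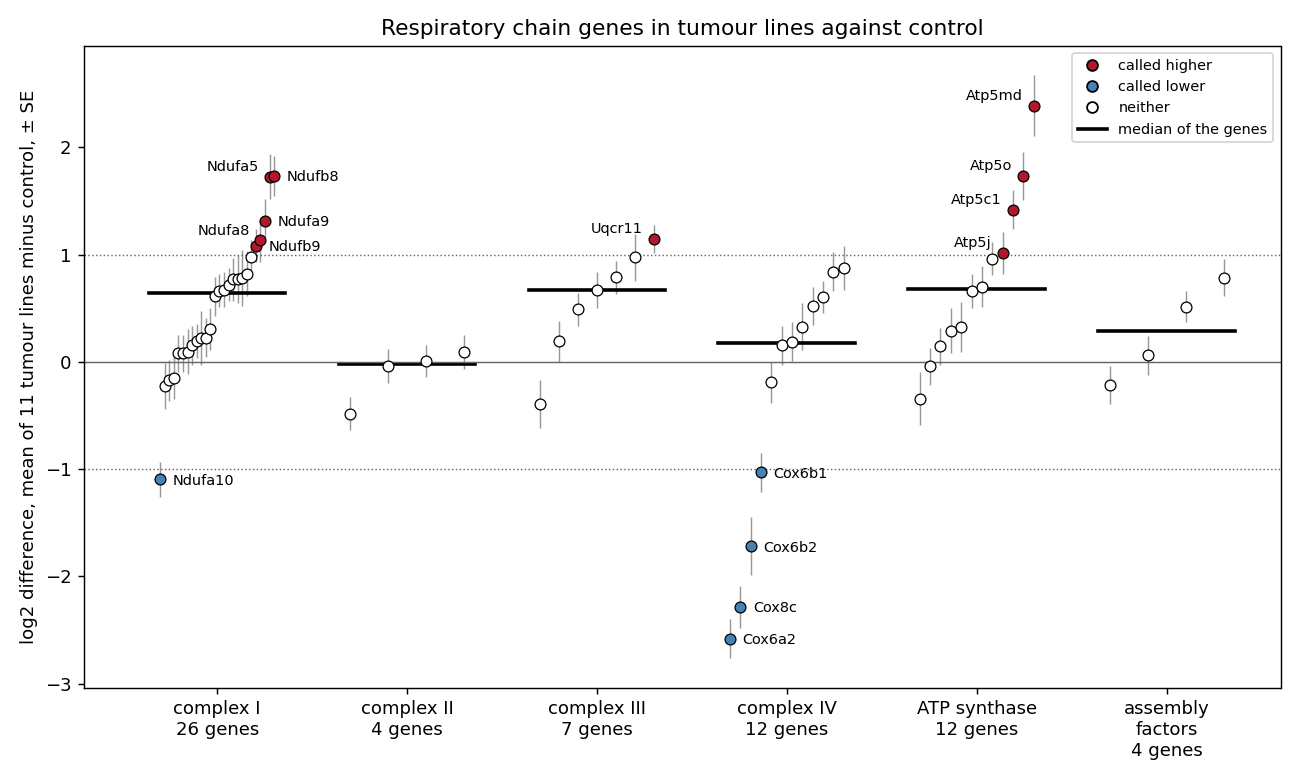
Log2 difference between the mean of the 11 tumour lines and the 2 controls for each of the 65 tested genes, by complex, with its SE; dotted lines mark 2-fold and thick bars the median of each group. The called rises lie in complex I, complex III and the ATP synthase, and 4 of the 5 called falls in complex IV.

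The members that rose together were set beside their promoters. RefSeq's promoter table (assembly GRCm38.p6, 250 bases before to 50 after a start site) matched 60 of the 73 genes, with 65 windows. Each window was searched on both strands for GCGCATGCG (Nrf1), CCGGAAG (Gabpa), AAGATGGCG (Yy1) and CACGTG (the E-box bound by Myc and other factors). The Nrf1 letters can overlap their own complement, and those of Gabpa and Yy1 can share AAG. The first 3 windows below belong to called rises and the last to a called fall with none of these letters. They are examples only: the called rises Ndufb8 and Atp5o had none of the letters, and the called fall Cox6b1 had those of Gabpa. Capitals mark the matches, and all 4 genes lie on the minus strand. The windows are chr10:80406772-80407071, chr6:126849095-126849394, chr19:47090598-47090897 and chr7:4753045-4753344.
Uqcr11: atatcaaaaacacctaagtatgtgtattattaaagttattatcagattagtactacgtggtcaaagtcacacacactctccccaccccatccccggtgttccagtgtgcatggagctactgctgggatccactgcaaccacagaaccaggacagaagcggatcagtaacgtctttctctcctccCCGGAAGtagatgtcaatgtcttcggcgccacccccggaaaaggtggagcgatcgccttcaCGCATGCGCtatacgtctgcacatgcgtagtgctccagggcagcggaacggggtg
Ndufa9: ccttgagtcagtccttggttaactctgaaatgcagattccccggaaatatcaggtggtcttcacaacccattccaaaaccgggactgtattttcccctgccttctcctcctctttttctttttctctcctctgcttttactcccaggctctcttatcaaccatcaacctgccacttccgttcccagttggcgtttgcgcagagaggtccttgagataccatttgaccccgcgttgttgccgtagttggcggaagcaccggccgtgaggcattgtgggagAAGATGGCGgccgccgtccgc
Atp5md: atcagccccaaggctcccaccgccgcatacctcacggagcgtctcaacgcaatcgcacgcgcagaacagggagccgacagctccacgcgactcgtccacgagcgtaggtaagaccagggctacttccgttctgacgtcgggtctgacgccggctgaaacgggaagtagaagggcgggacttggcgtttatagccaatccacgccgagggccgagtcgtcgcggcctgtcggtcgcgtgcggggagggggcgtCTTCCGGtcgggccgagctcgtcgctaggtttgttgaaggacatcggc
Cox6b2: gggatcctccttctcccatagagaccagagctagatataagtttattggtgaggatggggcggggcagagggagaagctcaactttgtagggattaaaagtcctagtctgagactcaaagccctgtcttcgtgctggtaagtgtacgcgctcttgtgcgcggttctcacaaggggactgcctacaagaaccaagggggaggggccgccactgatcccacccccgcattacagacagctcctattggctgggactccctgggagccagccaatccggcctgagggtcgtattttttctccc
The Uqcr11 window holds the Gabpa letters from base -66 and the Nrf1 letters from base -5, counted from the start site. Ndufa9 has the Yy1 letters from base 30 after the start, and Atp5md the Gabpa letters, on the other strand, from base 3.

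Among the members with a window, the Nrf1 letters were found in 8 of 60 genes (13.3%, against 1.95% of 27025 genes in the table), the Gabpa letters in 18 (30.0%, against 9.93%) and the Yy1 letters in 5 (8.33%, against 1.64%). CACGTG was in 5 (8.33%, against 8.09%). Called and uncalled genes both held the letters. The Gabpa letters were in 3 of 9 called higher, 1 of 3 called lower and 13 of 40 neither, and the Nrf1 letters in 2 of 9, 0 of 3 and 6 of 40. The Yy1 letters were in 2 of 9, 0 of 3 and 2 of 40. No called rise had CACGTG in its window, which says nothing of binding elsewhere. A match to these letters is a description of the sequence and not a binding site.

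Complex I, which takes electrons from NADH, had 26 tested subunits, of which 5 rose, 1 fell and 20 did neither, with a median log2 difference of 0.64. The 5 that rose are all accessory subunits, which surround the catalytic core, but so are most of the 26 tested. Ndufb8 had signals of 877 and 558 on controls 1 and 2, and line means of 1995 to 3193 with a median of 2392. The lines and controls did not overlap, and the log2 difference was 1.73 (SE 0.19, limma adjusted p = 1.5e-06). Ndufa5 gave 1091 and 495 on the controls and 2112 to 3214 in the lines, with a median of 2488 (1.73, SE 0.21, adjusted p = 4.5e-06). Its controls were over 2-fold apart, so its difference was 1.18 from control 1 and 2.27 from control 2. Ndufa9 was at 949 and 724 in control and at 1478 to 2759, median 2177, in the lines (1.32, SE 0.20). The log2 differences of Ndufa8 and Ndufb9 were 1.14 and 1.08. Both were called as deposited, but Ndufa8 not without control 2 and Ndufb9 neither without control 1 nor after quantile normalization.

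Of the 4 core subunits of complex I tested, the iron-sulfur subunit Ndufs3 and the flavoprotein subunit Ndufv2 had log2 differences of 0.72 and 0.67, each with all 11 lines above both controls and an adjusted p under 0.05 but short of 2-fold. The largest iron-sulfur subunit, Ndufs1, and the NADH-binding subunit Ndufv1 had 0.15 and 0.08, and both their line ranges took in the controls. Another probe set of Ndufv2 gave -0.50. Ndufa10, another accessory subunit, was the only complex I gene called lower. Its signals were 157 and 213 on the controls and 49.1 to 90.0, median 74.5, in the lines (log2 difference -1.10, SE 0.17). All 11 lines lay below both controls, at signals near the array medians, and the call was lost after quantile normalization, centring, an offset of 100 or without control 2.

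Complex II, succinate dehydrogenase, links the citrate cycle to the chain. None of its 4 subunits was called, and their median log2 difference was -0.02. The flavoprotein Sdha gave 212 and 211 on the controls and 179 to 287, median 205, in the lines, so its control values lay within the range of the lines. The iron-sulfur subunit Sdhb had a difference of 0.09 and the membrane anchor Sdhd -0.04. The other anchor, Sdhc, had 1390 and 1065 on the controls and 741 to 1085, median 855, in the lines. Its log2 difference was -0.48 (SE 0.15, limma adjusted p = 0.0119), short of 2-fold, with 10 of 11 lines below both controls. Centring turned the median of complex II to 0.67, while quantile normalization gave -0.16.

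Complex III passes electrons from ubiquinol to cytochrome c. Of its 7 subunits, 1 rose (14.3%, against 16.5% of all tested) and 6 did neither, and the median log2 difference was 0.67. For 5 of the 7, all 11 lines lay above both controls (71.4%). That held for 25.4% of all tested probe sets and 60.6% of the bright ones. After quantile normalization it held for 3 of the 7. Uqcr11, its smallest subunit and the first promoter above, had nearly equal controls, 847 and 798, and lines from 1585 to 2098, median 1874 (1.15, SE 0.13, limma adjusted p = 2.4e-06). The ubiquinone-binding subunit Uqcrq gave 3268 and 1494 on the controls and 3282 to 5007, median 4416, in the lines. Its log2 difference of 0.98 was made of 0.42 from control 1 and 1.53 from control 2. The core proteins Uqcrc1 and Uqcrc2 had differences of 0.67 and -0.39. Uqcrc2 was at 1135 on control 1 and 545 on control 2, and its lines, from 456 to 776, took in control 2 and lay below control 1.

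Complex IV, cytochrome c oxidase, reduces oxygen to water. It had 12 tested genes, of which none rose, 4 fell and 8 did neither, with a median log2 difference of 0.17. The bright subunits were at or above the control level. The subunit Cox5b gave 1338 and 861 on the controls and 1422 to 2467, median 2094, in the lines (0.88, SE 0.20), and Cox7b and Cox6c had differences of 0.84 and 0.60. In all 3, every line lay above both controls. Cox4i1 (0.33), Cox7a2 (0.19) and Cox7a2l (0.16) had adjusted p over 0.05.

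The 4 complex IV genes that fell had low signals, and 3 of them are isoforms known from other tissues. Cox6a2, the isoform of heart and skeletal muscle, gave 315 and 252 on the controls and 11.6 to 34.8, median 20.3, in the lines. With a log2 difference of -2.58 (SE 0.18, limma adjusted p = 1.4e-08), it had the lowest difference of the 65 genes and was called lower in each of the 11 lines. Its partner Cox6a1, the isoform of most tissues, was at 3647 and 2251 on the controls and 3289 to 4836, median 4055, in the lines (0.52, SE 0.17). Cox8c, known from testis, gave 498 and 734 on the controls and 73.9 to 163.8, median 92.9, in the lines (-2.28, SE 0.20). Cox6b2, also known from testis, was at 63.2 and 220.7 on the controls, over 2-fold apart, and at 5.44 to 29.6, median 19.1, in the lines (-1.72, SE 0.27). Its call was lost with an offset of 100. Cox6b1, the isoform of most tissues, was itself low on its probe set, at 142.5 and 151.1 on the controls and 41.6 to 98.1, median 50.7, in the lines (-1.03, SE 0.18). That call was lost after quantile normalization, centring, an offset of 100 or without control 2. The lines did not overlap the controls for any of these 4 falls, and 29.7% of all tested probe sets had every line below both controls.

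Lung veins hold heart-like muscle, so muscle markers were read beside Cox6a2. The summed signal of 11 heart and striated muscle markers was 653 and 723 on the controls and 478 to 1315 on tumour arrays. Actc1, cardiac actin, held much of it, at 343 and 355 on the controls, and the sum of the other 10 was 310.0 and 367 against 170.2 to 586. Both controls were above the mean of the lines for 3 of the 11 and below it for 6, and of the 5 tested 1, the troponin Tnnt2, was called higher and none lower. The cardiac troponin Tnni3, not tested, was at 53.3 and 122 on the controls against a mean of 7.90 over the lines. Myl4, an atrial myosin light chain, was at 86.3 and 113.6 against 59.2, with all 11 lines below both controls but short of 2-fold (-0.54, limma adjusted p = 0.00733). The cardiac myosin Myh6 was at 2.37 and 2.95 on the controls, and Ckm, muscle creatine kinase, at 49.9 and 47.0 against 34.5 ± 13.3 (SD, n = 11 lines). The muscle isoforms Cox7a1 and Cox8b were not called. Cox7a1, not tested, gave 23.7 and 7.70 on the controls, and Cox8b gave 104.8 and 79.3 against 47.3 to 110.3 in the lines (-0.19, adjusted p = 0.398). Other probe sets of Cox8c and Cox6b2, none of them tested, were at most at 7.70 and 56.4 on the controls. Those of Cox6b2 disagreed, at 6.04 and 6.08 on the controls against a line mean of 16.2, and at 8.51 and 56.4 against 2.37. The probe sets used for Cox6b2 and Cox6b1 carry the suffixes f and r, and those of Cox6a2 and Cox8c carry none. The part of these markers in the result for Cox6a2 was not tested, nor which cells of the control preparations held these transcripts.

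**Figure D2:**
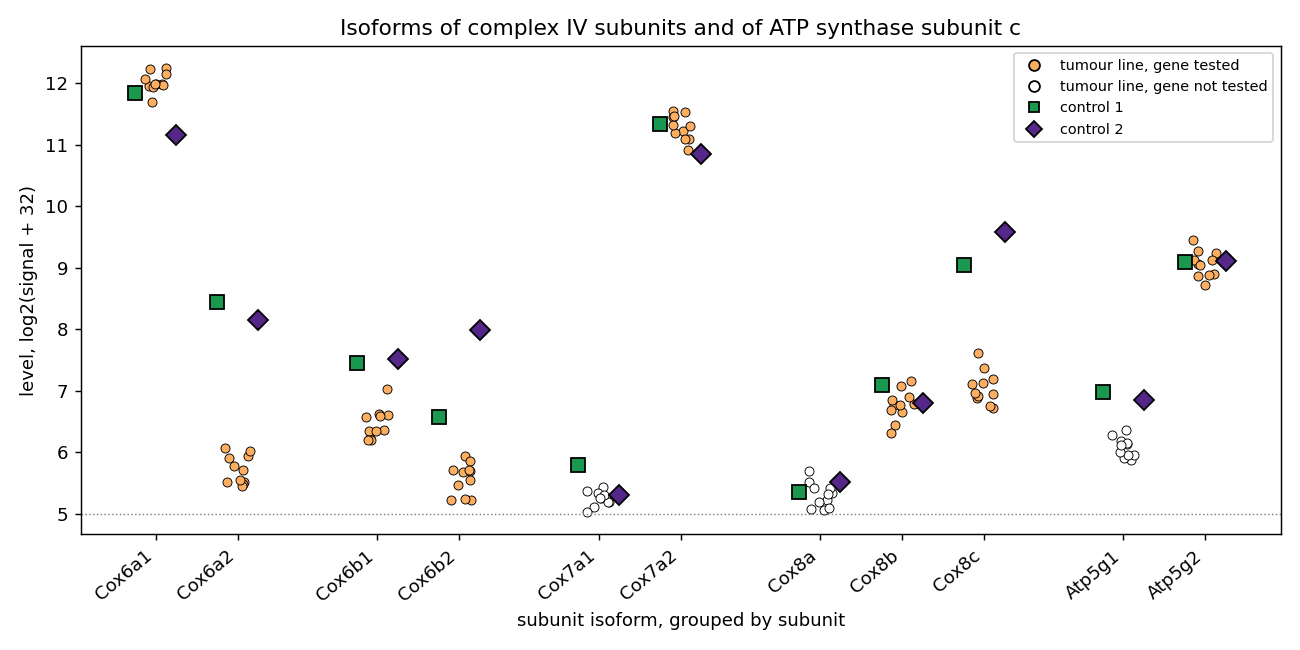
Level, as log2(signal + 32), of the isoforms of 4 complex IV subunits and of ATP synthase subunit c in the 11 tumour lines (circles) and the 2 controls (square and diamond); open circles mark genes that were not tested. Cox6a2, Cox6b1, Cox6b2 and Cox8c lie below both controls in every line, while Cox6a1, Cox7a2 and Atp5g2 overlap them.

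The ATP synthase had 12 tested genes, of which 4 rose, none fell and 8 did neither, with a median log2 difference of 0.68. Atp5md, a small subunit of the membrane part, had the largest rise of the 65 genes. It gave 2179 and 757 on controls 1 and 2 and 4476 to 8837, median 6882, in the lines (2.39, SE 0.29, limma adjusted p = 3.5e-06). Its difference was 1.64 from control 1 and 3.13 from control 2, and the line A2C12 was lowest. Its probe set carries the suffix f, Affymetrix's mark for probes that may also bind related transcripts.

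The peripheral stalk, which holds the catalytic head still, held the next rise. Its subunit Atp5o had controls close together, at 645 and 611, and lines from 1617 to 2845, median 2264 (1.73, SE 0.23). The stalk subunit Atp5j rose by less, from 1107 and 857 on the controls to a line median of 1936 (1.02, SE 0.19), and its call was lost in 7 of 25 other settings, among them without control 2 and without A2B1, B3, betaD5 or betaD10. The stalk subunit b, Atp5pb, was dim and not called (-0.34). In the rotor, the gamma subunit Atp5c1 gave 2099 and 1214 on the controls and 3577 to 5186, median 4451, in the lines (1.42, SE 0.18); its other probe set gave 0.73 and was not called. The alpha subunit of the catalytic head, Atp5a1, was at 2952 and 2625 on the controls and 4276 to 6162, median 5709, in the lines (0.96, SE 0.15), just short of 2-fold. The rotor subunits Atp5d and Atp5e had differences of 0.14 and 0.29, and the ring subunit Atp5g2 had -0.04. Probe sets of Atp5d disagreed, with another at 0.97.

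**Figure D3:**
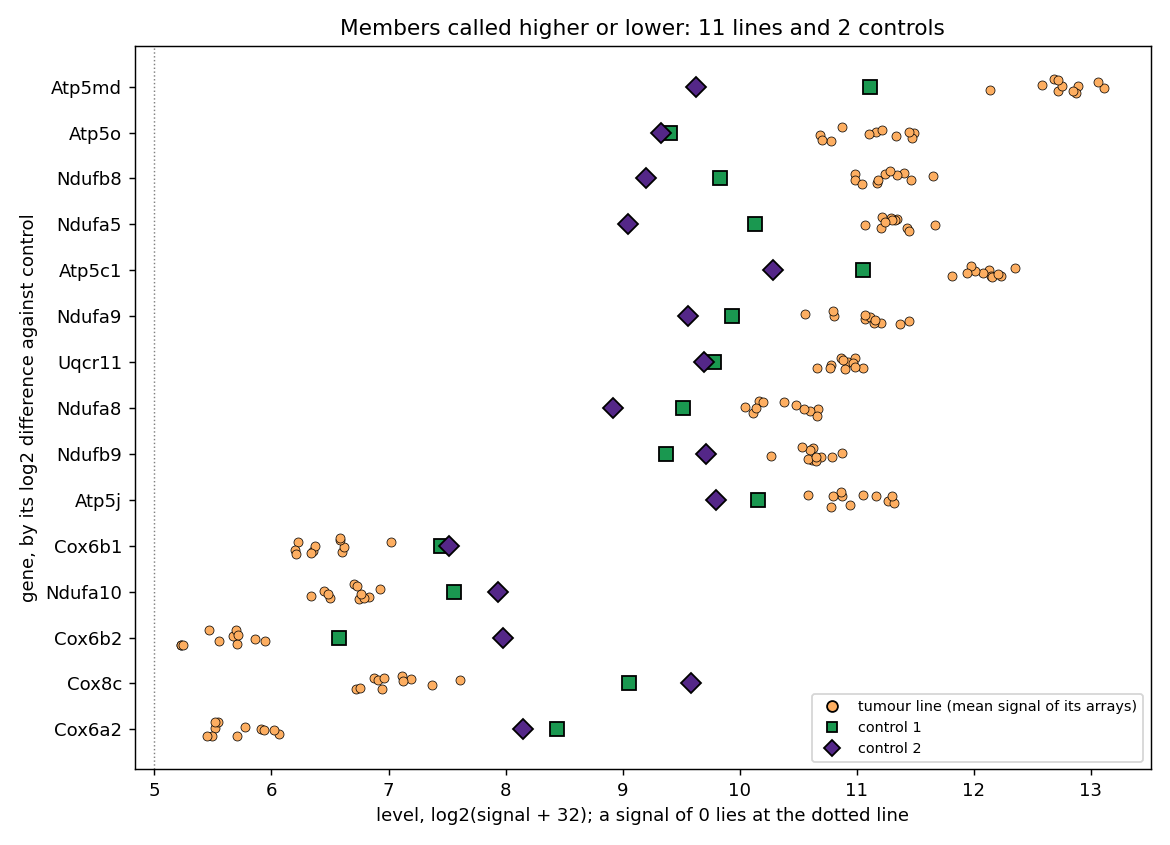
Level, as log2(signal + 32), of the 15 called genes in the 11 tumour lines (circles) and on control 1 (square) and control 2 (diamond), ordered by log2 difference. For all 15 genes the lines lie on 1 side of both controls. The genes were called on the difference between these same lines and controls. Over all tested probe sets, every line lay above both controls for 25.4% and below both for 29.7%. The controls lie far apart for Atp5md, Ndufa5 and Cox6b2.

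The 4 assembly factors, which build complexes I and II and are not part of them, were not called. Ndufaf1 (0.51) and Sdhaf2 (0.78) had all 11 lines above both controls at an adjusted p under 0.05. Ndufaf4 and Sdhaf1 had 0.06 and -0.21.

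The 2 controls were compared for the same genes. They lay at least 2-fold apart for 6 of 65 members (9.23%), against 12.4% of all tested probe sets, and control 2 was the higher for 18. The 6 were Atp5md, Cox6b2, Atp5k, Uqcrq, Ndufa5 and Uqcrc2, of which Cox6b2 alone was higher on control 2. Atp5k, subunit e of the ATP synthase, was at 114.4 on control 1 and 35.0 on control 2, and of its 11 line means, at 65.7 to 127.9, 1 lay above both and none below. Over all members the median difference of the lines was 0.34 from control 1 and 0.54 from control 2. For complex I these were 0.43 and 0.80, for complex III 0.45 and 0.82, for complex IV 0.06 and 0.22 and for the ATP synthase 0.38 and 0.97. Complex II lay below control 1 (-0.22) and above control 2 (0.10).

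Array by array, the median level of the 65 genes lay between 10.26 and 10.57 for all 22 tumour arrays, against 9.83 and 9.62 for the controls, on the log2(signal + 32) scale. As a rank among all probe sets of its array, which no scaling changes, that median was at the 93.3 to 94.7 percentile on tumour arrays and at 91.4 and 89.7 on the controls. For both measures every tumour array was above both controls. Complex II overlapped, at 9.86 to 10.32 against 10.44 and 9.98. The complex IV median was 8.52 to 9.62 against 9.43 and 9.50, and a single tumour array, A2B1 replicate 1, was above the controls; the unnumbered A2B1 array was at 8.97. That median falls between the bright and the dim genes of complex IV, so it was lower in the lines although the median of the gene differences was 0.17. By rank, 21 genes had every line above both controls (32.3%, against 31.2% of all tested) and 7 below (10.8%, against 24.7%), so the share above was near the background.

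**Figure D4:**
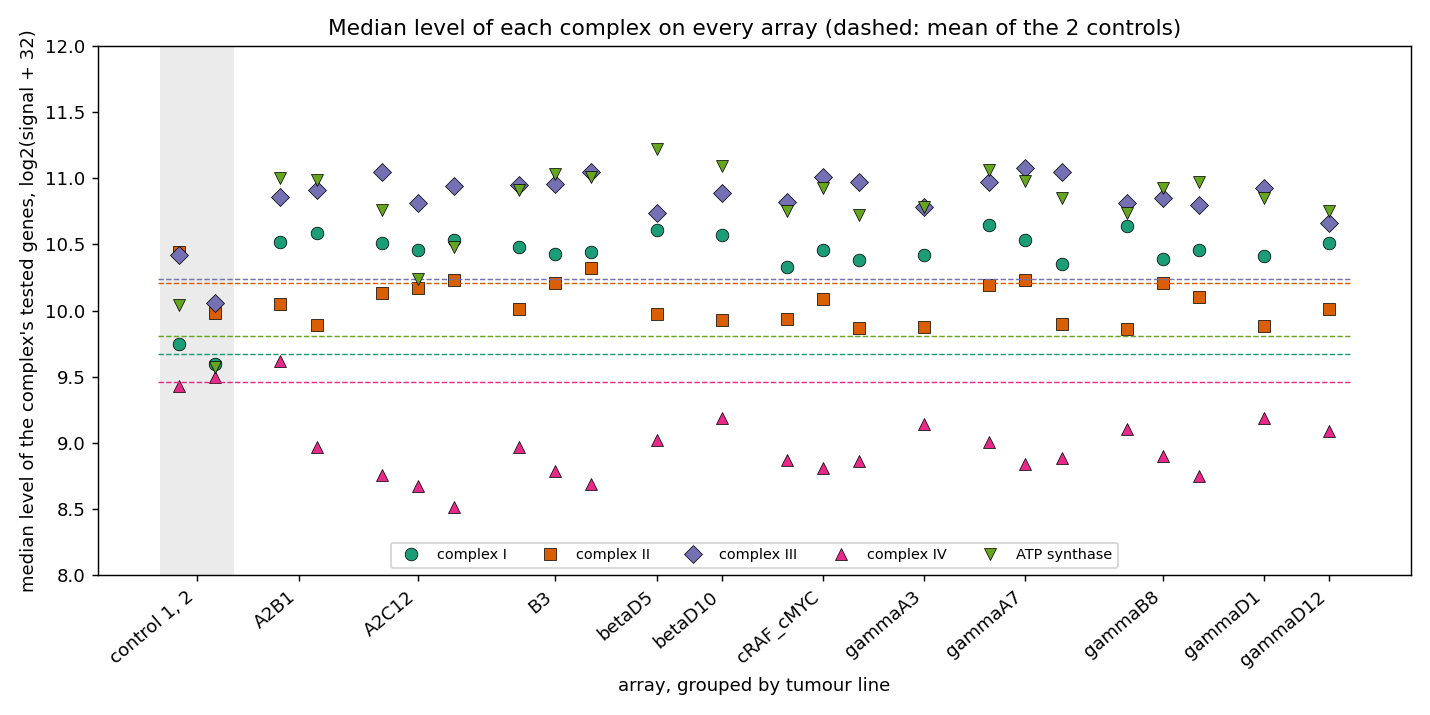
Median level of each complex's tested genes on every array, grouped by line, with the controls shaded and their mean dashed. The medians of complexes I and III and the ATP synthase lie above the controls on every tumour array. That of complex II overlaps them, and that of complex IV lies below them on all but A2B1 replicate 1. The complex IV median falls between its bright and its dim genes, and its gene differences had a median of 0.17.

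Line by line against control, 9 to 15 members were called higher and 3 to 5 lower. Across all tested probe sets 13.6% to 18.1% were higher and 17.7% to 22.5% lower in single lines. The 11 contrasts share both controls. A2B1 had the largest median difference of the members (0.61) and betaD5 the smallest (0.33). Ndufa5, Ndufb8, Atp5c1, Atp5md and Atp5o were called higher in all 11 lines one by one (6.79% of all tested probe sets were), and Cox6a2, Cox6b2 and Cox8c lower in all 11 (11.7%). Of the other members, 38 were called in no line and 19 in some. Without control 2, 5 members were called in all 11 lines in place of 8 (14.5% of all tested were), and without control 1, 11 (22.4%).

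Among the lines no member was called by the moderated F-test (3.42% of all tested probe sets were). At an unadjusted p under 0.05 there were 10 members, and the share of all tested probe sets at that threshold was not counted. The lowest adjusted p was 0.0676, for Ndufa2. The range of line means, from the lowest to the highest line, was 0.35 to 1.40 in log2 units with a median of 0.69, against 0.86 over all tested. A2C12 was the lowest line for 14 of 65 genes, 6 of them among the 12 of the ATP synthase, and A2B1 the highest for 13, 6 of them among the 12 of complex IV. Those 6 were Cox6a1, Cox6a2, Cox6b1, Cox7a2l, Cox8b and Cox8c. On the unnumbered A2B1 array alone, each of them except Cox6a2 lay below the mean of another line. Cox7a2l, for example, gave 1865 on A2B1 replicate 1 and 964 on the unnumbered array. Replicate 1 also had the highest median signal (75.5) and actin ratio (1.32) of the tumour arrays, and the part of this was not tested. Without the unnumbered A2B1 array 4 members passed (6.15%, against 10.3% of all tested), and without A2B1 replicate 1, 1 did (1.54%, against 3.25%). These 2 arrays of A2B1 lay at least 2-fold apart for 2 members, Cox8c (255.8 and 71.7) and Ndufa6 (850 and 383), and for 12.8% of all tested probe sets. In the 15 other pairs of arrays of a line, at most 1 member was 2-fold apart.

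In A2C12, B3 and gammaB8 the arrays numbered 1 and 2 were closer to each other (0.261% to 0.887% of all tested probe sets 2-fold apart) than to the unnumbered array (2.85% to 7.35%). In cRAF_cMYC and gammaA7 the numbered arrays were 2-fold apart for 5.80% and 5.67%. The differences of array 1 from 2 over all tested probe sets correlated at 0.82 between these lines. In the 5 lines that have both numbers, these arrays alone gave 13 members at an adjusted p under 0.05 in limma's F-test, beside 20.7% of all tested probe sets, so that the members' share was near the background. A2C12 was lowest for 7 of the 13. Ndufa7, an accessory subunit of complex I, gave 2166 and 2240 in A2C12 and 3939 and 3724 in gammaB8, and 2376 to 2649 in the other 3 lines. Sdhd gave 2092 and 2058 in B3 and 1196 to 1443 in the other 4 lines. Cox7a2 gave 1835 and 1902 in A2C12 and 3448 and 3073 in gammaB8. The unnumbered arrays of these lines differed from this for 2 of the 3 genes. On them Sdhd was at 1348 in B3 and at 1214 to 2010 in the other 4 lines. Cox7a2 was there higher in A2C12 (2772) than in gammaB8 (2360). Ndufa7 was again lower in A2C12 (2631) than in gammaB8 (3938).

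Between unnumbered and numbered arrays of the same line, limma called no member higher (0.404% of all tested were) or lower (0.261%), with 17 at an unadjusted p under 0.05. At an adjusted p under 0.05 but short of 2-fold were Ndufa8 (0.42), Cox6c (0.31), Atp5md (0.30) and Ndufv1 (-0.33), given as unnumbered minus numbered. The shares of all tested probe sets without the 2-fold limit were not counted, so these members cannot be set against the background.

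The other nuclear genes that serve mitochondria were read from 6 lists, with the signals as deposited. The lists were not run under the other scalings. Beside the counts of each list stand 16.5% of all tested probe sets called higher and 21.4% called lower. Of 58 tested proteins of the mitochondrial ribosome, which makes the subunits encoded in mitochondrial DNA, 26 rose, 2 fell and 30 did neither, with a median log2 difference of 0.94. Mrpl12 went from 249 and 139 on the controls to 1049 ± 288 in the lines (SD, n = 11; log2 difference 2.24), and Mrpl18 rose by 2.23. The 2 that fell were Mrpl3 (-1.60) and Mrpl23 (-1.17). Of 17 import proteins and chaperones, 10 rose, none fell and 7 did neither (median 1.16). The import receptor Tomm70a rose by 2.21 and the matrix protease Clpp by 1.97. Both medians were above the 0.33 of the respiratory chain genes; these differences between lists were not tested.

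The list of carriers and other inner membrane proteins had 5 rises and 1 fall among 19 tested. Slc25a4, which exchanges ADP for ATP across the inner membrane, went from 1613 and 1142 on the controls to 8704 ± 1134 in the lines (SD, n = 11; log2 difference 2.64). Gpd2, the glycerol phosphate dehydrogenase that feeds electrons to ubiquinone, rose by 2.00, and the carnitine carrier Slc25a20 fell by 1.09. Cytochrome c (Cycs) had a difference of 0.87 and was not called. Of 11 tested genes in the list of assembly factors, 3 rose, 1 fell and 7 did neither. Cyc1, the cytochrome c1 subunit of complex III, whose symbol the rule does not take, was in that list and rose from 2597 and 1812 to 6861 ± 787 (1.64). Chchd10, a protein of the space between the membranes, gave 2014 and 4302 on the controls and 11.5 ± 6.34 in the lines, a difference of -6.12 (SE 0.22, limma adjusted p = 3.9e-12).

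In the citrate cycle list 1 of 15 rose, the ketoglutarate dehydrogenase subunit Dlst (1.03), and none fell. Among 10 tested regulators 2 rose, the coactivator Pprc1 (1.54) and the mitochondrial DNA-binding protein Ssbp1 (1.44). Gabpa and Yy1 were not called, at 0.13 and 0.50. Tfam and Ppargc1a were not tested; their line means were 33.4 and 9.20, with controls at no more than 5.55 and 7.59.

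**Figure D5:**
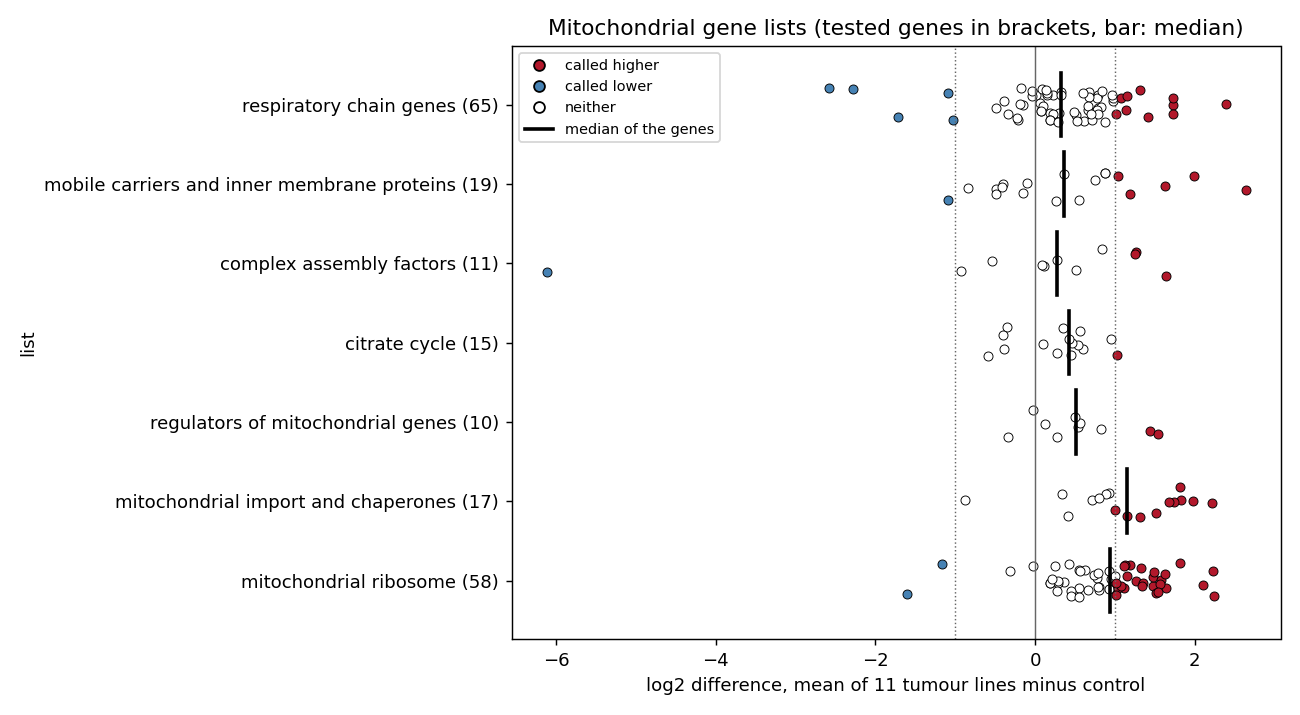
Log2 difference between the 11 tumour lines and the controls for each tested gene of the respiratory chain and of the 6 other mitochondrial lists; filled points were called and bars mark medians. The medians of the import and ribosome lists (1.16 and 0.94) lie to the right of that of the respiratory chain (0.33).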

How the data were processed

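Signals of 24 Affymetrix mouse arrays were analysed. The deposited intensity of each probe set is on a linear scale and was made by the authors with GCOS (no version named), per the submitters' processing notes; the trimmed means show that arrays had been scaled alike. Background steps and detection calls: not given in the sources used here. Affymetrix's own 66 control probe sets were dropped. Signals were taken as log2(signal + 32), and 7670 probe sets above their array's median on at least 2 arrays were tested. Limma 3.58.1 (R 4.3.3) fitted the 11 line means against 2 controls, 12 group means over 24 arrays for the contrasts of each line and the F-test, and unnumbered against numbered arrays with the line as a block. The number of arrays limits the precision. All fits were run on simulated data with independent noise on each array and no spread between lines. Those runs therefore do not check the p-values against the real spread between lines.

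The members, lists and motifs were chosen with earlier results of these data known. Named were up to 3 called rises and 3 called falls per complex by size, members 2-fold apart between controls (up to 5), isoform sets and up to 2 genes per list; other members were named for their role or position and were chosen after their values were seen. Differences of replicate 1 from 2 correlated over 0.1 in 1 of 10 pairs of lines, and the lowest correlation was -0.03. That pair was cRAF_cMYC and gammaA7 (0.82), whose replicate numbers thus marked a shared difference between arrays. The main fits did not model it, and only 1 alternative, on numbered arrays, took the replicate number as a block. Alternatives covered scaling, offset, filter, variance model, repeat arrays, probe sets and left-out samples; leaving A2B1 replicate 1 out of the comparison with control was added after seeing the data.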

Additional observations from a re-analysis of the deposited data

How the results depend on the processing

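All 15 called members kept their direction in the settings where they were tested, and 9 of them (Ndufa5, Ndufb8, Ndufa9, Uqcr11, Atp5md, Atp5o, Atp5c1, Cox6a2 and Cox8c) kept their call in all. Against 10 higher, 5 lower and a median of 0.33, centring gave 33, 3 and 1.01, with 29 called in all 11 lines in place of 8, and quantile normalization 3 lower and 0.43. An offset of 100 and a filter of 12 arrays each left 2 lower, and probe sets without a suffix 3. Medians were 0.50 with an offset of 1 and likewise a floor of 32, 0.22 with no filter, 0.51 with the filter of 12 arrays and 0.66 without suffixed probe sets, and no fold threshold gave 32 higher; fewer genes were tested in some of these, and otherwise the cause was not tested. Leaving out 1 line or control gave 9 to 15 higher, 3 to 5 lower and medians of 0.30 to 0.54. The number called in all 11 lines was 5 without control 2 and 11 without control 1, and it was not counted with a line left out. Among lines, 1 member was called with offsets of 1 and 100 and a floor, 2 with no filter, 13 on numbered arrays and 10 there with the replicate number as a block, and 0 to 4 with an array left out. With 2 controls and 1 array for 5 lines, precision was limited, and the smallest difference that could be detected was not worked out. Differences short of 2-fold were not called, whatever their adjusted p.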
